A study of Mus musculus with 8 samples.

Results

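The genes described here serve antigen presentation by major histocompatibility complex (MHC) class I molecules: 10 of the 19673 genes in the deposited expression table, taken by name. They comprise the classical heavy chains H2-K1 and H2-D1, the nonclassical heavy chains H2-T23 and H2-Q7, and the light chain B2m. The others are the peptide-loading chaperone Tapbp (tapasin), the class I transactivator Nlrc5, and the inducible proteasome subunits Psmb8, Psmb9 and Psmb10. Expression was measured by bulk RNA sequencing in cells sorted as CD45+CD3e+CD8+ from tumours of Py8119, a mouse mammary tumour line, with 4 libraries per group. In the KO group the tumour-bearing mouse carried the Mtdh KO genotype, and in the WT group it was wild type. The tumour line was the same in both groups. Only the host genotype is labelled, and the strain, age and sex of the mice, the allele and the cells in which Mtdh was deleted are not given in the sources used here. The libraries of a group are described as biological replicates, and whether any pooled several mice is not given in the sources used here.

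Class I molecules show peptides from inside the cell to CD8 T cells. Proteins are cut by the proteasome, and peptides are carried into the endoplasmic reticulum by the transporter Tap1 and Tap2 and loaded with the help of tapasin onto a heavy chain paired with B2m. Interferon gamma induces most steps of this route, including Nlrc5 and the 3 subunits that replace the constitutive catalytic subunits to form the immunoproteasome. Nearly all nucleated cells make class I molecules, T cells and macrophages included, so these genes do not mark a cell type.

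Libraries held an estimated 16400000 to 29600000 reads, small RNAs included. Distinct cDNA fragments, small RNAs left out, were estimated at about 113000 to 631000 per library. By this estimate a single fragment was worth a normalized count of up to 153, in KO library 2. Mtdh ranged from 2538 to 5118 among KO libraries and from 6407 to 12745 among WT libraries, without overlap, and a value for the whole gene does not show which exons remain. Of the 11 CD8 T cell markers all were detected, and so were macrophage genes outside the sorting gate, such as Lyz2 at 75242 to 211543. In every library Lyz2 lay above Cd8a, which was at 1565 to 13355. In these bulk libraries fewer cells of a type and less RNA per cell cannot be told apart.

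The promoters of 4 members are shown because they share an arrangement of letters that class I promoters are known for. In these genes the letters TGACG, the core of the X2 element, stand upstream of ATTGG, the inverted CCAAT of the Y box. Both belong to the module through which Nlrc5 and its partner factors act on class I genes. The sequences are RefSeq's on GRCm38.p6, the last 150 bases before the transcription start, written 5′ to 3′ on the gene's strand, with TGACG and ATTGG in capitals. They lie at chr2:122147537-122147686 (plus strand) for B2m, chr17:34000348-34000497 (minus strand) for H2-K1, chr17:35262944-35263093 (plus strand) for H2-D1 and chr17:35439005-35439154 (plus strand) for H2-Q7.
B2m: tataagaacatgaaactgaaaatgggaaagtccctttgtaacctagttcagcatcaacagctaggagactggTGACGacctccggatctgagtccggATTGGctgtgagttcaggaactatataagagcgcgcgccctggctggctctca
H2-K1: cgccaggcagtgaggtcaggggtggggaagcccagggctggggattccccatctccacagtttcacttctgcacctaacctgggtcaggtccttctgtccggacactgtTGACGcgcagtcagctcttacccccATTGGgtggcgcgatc
H2-D1: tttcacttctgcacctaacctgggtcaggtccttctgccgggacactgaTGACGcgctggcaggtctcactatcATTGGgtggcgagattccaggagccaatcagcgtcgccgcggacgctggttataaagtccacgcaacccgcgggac
H2-Q7: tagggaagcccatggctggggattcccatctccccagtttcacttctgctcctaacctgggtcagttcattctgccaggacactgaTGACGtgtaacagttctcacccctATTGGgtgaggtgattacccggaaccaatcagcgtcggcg
The spacer between the capitals is 20 bases in B2m, H2-K1 and H2-D1 and 19 bases in H2-Q7. Promoter sequences of 9 of the 10 members were matched by symbol, and the search covered the 250 bases before the start on both strands. TGACG was present in 5 of these 9 and in 17.8% of all 32851 promoters, and ATTGG in 7 of 9 and 33.8%. The pair at a spacing of 19 or 20 bases, which overlaps with both single motifs by construction, was present in 4 of 9 and in 0.128% of all promoters. The spacing counted is the one seen in these 4 members, so the 4 of 9 describes them and is no test. GAAA followed after any 2 bases by GAAA, the core of an interferon-stimulated response element, was present in B2m and H2-T23 and in 2.98% of all promoters. TTCNNNGAA, the core of an interferon gamma-activated site, was present in Psmb8 and in 7.02%. A match describes the letters and does not show that a factor binds there. Variants of these letters were not searched for, so a promoter without a match can still hold such an element.

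None of the 10 members passed the threshold in KO against WT (limma adjusted p under 0.05 over 16120 tested genes), where 0.236% of all tested genes passed. At an unadjusted p under 0.05, 5 members were higher in KO (B2m, H2-K1, H2-D1, H2-T23 and H2-Q7) and 0 were lower, against 6.70% of all tested genes in either direction and 3.21% higher. A log2 fold change above 0 was found for 9 of the 10 members, with Psmb10 the exception, and for 43.4% of all tested genes. The median over the members was 0.68, and that over all tested genes was -0.12. In 2 members, H2-K1 and H2-D1, every KO library lay above every WT library, a pattern found in 2.02% of all tested genes, while 4.11% did not overlap in either direction. The members were chosen with earlier results of these data known, so these counts describe the list and do not test it.

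**Figure D1:**
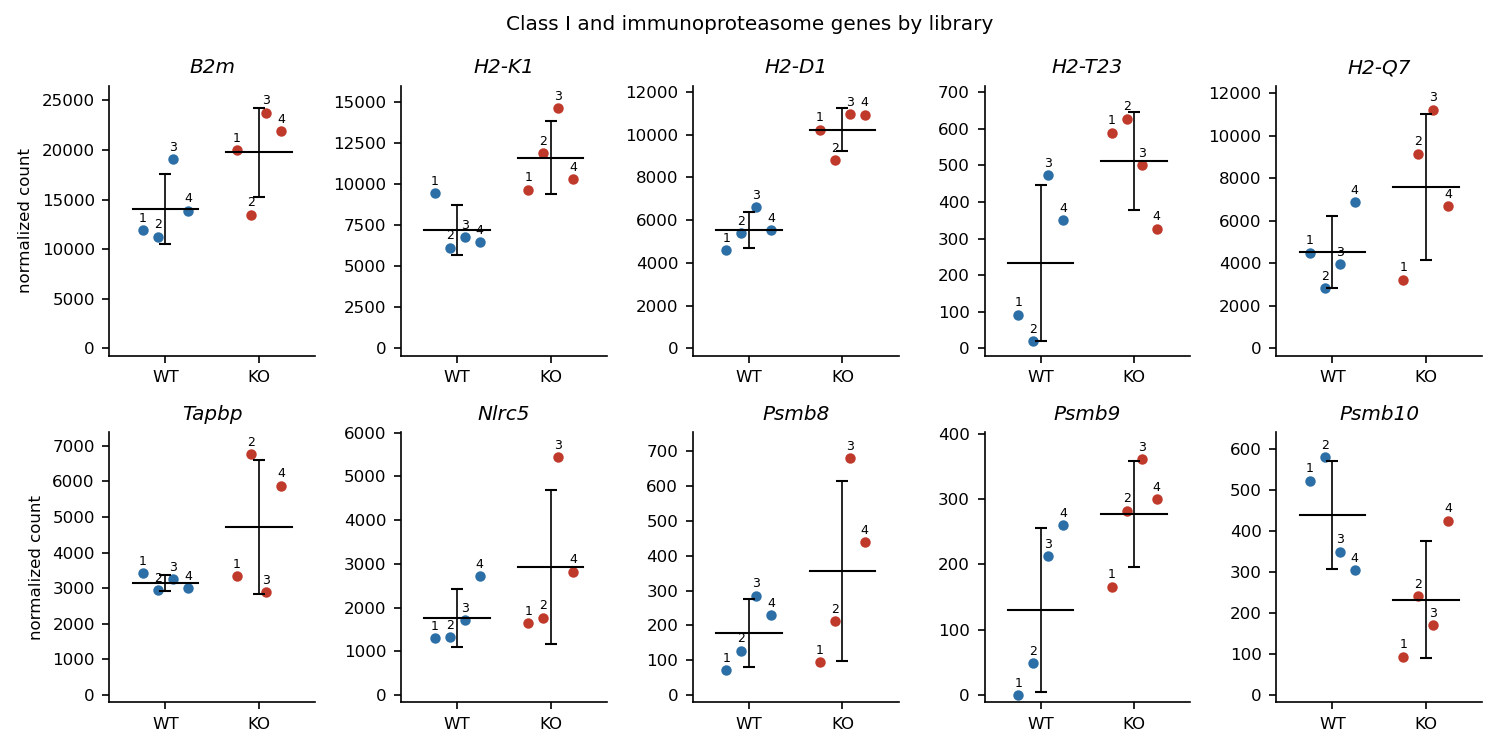
Normalized count (vertical axis, starting at 0) of each member in the 4 WT libraries (blue) and 4 KO libraries (red), numbered by library, with the group mean (horizontal line) and SD (error bar). The groups are separate for H2-K1 and H2-D1, and Psmb10 is the only member with a lower KO mean, 232 against 438.

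Both classical heavy chains were higher in every KO library than in any WT library, but neither passed. H2-D1 (ENSMUSG00000073411, chromosome 17, 35481706 to 35486475 of mm39) lay at 10228, 8801, 10965 and 10927 in KO libraries 1 to 4 and at 4597, 5395, 6614 and 5534 in WT libraries 1 to 4. The groups did not overlap, and the lowest KO value was above the highest WT value by more than the SD of either group, with means of 10230 ± 1011 in KO and 5535 ± 829 in WT (SD, n = 4). The H2-D1 log2 fold change was 0.89 (SE 0.19, 95% interval 0.49 to 1.29, adjusted p = 0.0594 by limma). This value passed the threshold under 4 alternatives: a pseudocount of 10 (limma adjusted p = 0.0406), no minimum mean (0.0484), robust hyperparameters (0.0395) and sample weights (0.0130). It did not pass under the others, with a limma adjusted p of up to 0.358 when WT library 1 was left out.

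H2-K1 (ENSMUSG00000061232, chromosome 17, 34214991 to 34219321 of mm39) lay at 9659, 11858, 14605 and 10277 in KO libraries 1 to 4 and at 9441, 6123, 6771 and 6463 in WT libraries 1 to 4. The groups were separate by a narrow margin, since WT library 1 almost reached KO library 1. Its log2 fold change was 0.69 (SE 0.21, 95% interval 0.26 to 1.12, adjusted p = 0.331 by limma). H2-K1, H2-D1 and the H2-Q genes are similar in sequence, and neither how reads common to them were assigned nor the MHC haplotype of the hosts is given in the sources used here. Whether haplotype moved with the groups was not tested.

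B2m, the light chain that every class I heavy chain needs to reach the cell surface (ENSMUSG00000060802, chromosome 2, 121978167 to 121983564 of mm39), was the most abundant member. It lay at 19972, 13477, 23779 and 21917 in KO libraries 1 to 4 and at 11947, 11273, 19076 and 13904 in WT libraries 1 to 4. The groups overlapped, because KO library 2 was below WT libraries 3 and 4. The log2 fold change of B2m was 0.49 (SE 0.22, 95% interval 0.02 to 0.96, adjusted p = 0.730 by limma).

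For abundant genes, ratios within a library hardly depend on scaling between libraries, and 5 ratios were tested. The log2 ratio of H2-D1 to B2m averaged -0.93 ± 0.22 in KO and -1.32 ± 0.19 in WT (SD, n = 4), a difference of 0.40 (exact two-sided permutation p = 0.0571, adjusted over the 5 ratios 0.143). The ratios of H2-D1 to B2m spanned -1.12 to -0.61 in KO and -1.53 to -1.06 in WT, and only KO library 3 lay below the highest WT library, library 2. The log2 ratio of H2-K1 to B2m differed by 0.20 between the groups (exact two-sided permutation p = 0.543, adjusted 0.543), with values from -1.09 to -0.18 in KO and from -1.49 to -0.34 in WT. With 4 against 4 libraries this test cannot give a p below 0.0286, so a p above the threshold does not show that either ratio was the same in both groups.

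**Figure D2:**
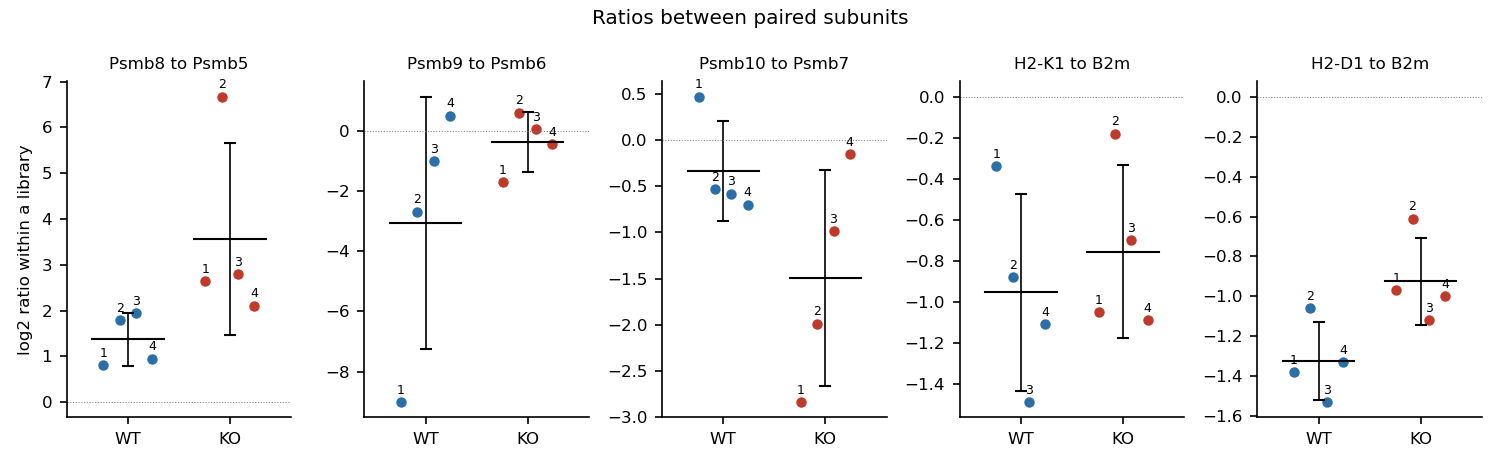
Log2 ratio (vertical axis) between paired genes in each WT (blue) and KO (red) library, numbered by library, with the mean (line) and SD (error bar), and a dotted line at a ratio of 1. Only the Psmb8 to Psmb5 ratio is separate between groups, and its highest value, 6.67 in KO library 2, rests on a Psmb5 value of 1.10.

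The nonclassical heavy chains varied more between libraries than the classical ones. H2-Q7 encodes a Qa-2 antigen (ENSMUSG00000060550, chromosome 17, 35658131 to 35662749 of mm39), and lay at 3244, 9162, 11230 and 6707 in KO libraries 1 to 4 and at 4507, 2837, 3970 and 6884 in WT libraries 1 to 4. KO libraries 2 and 3 were above all WT libraries, while KO library 1 was below 3 of them. Its log2 fold change was 0.67 (SE 0.32, adjusted p = 0.742 by limma), or 1.03 without KO library 1 and 0.43 without KO library 3. The neighbouring gene H2-Q6, 9099 bases away and similar in sequence, had its highest value, 3529, in KO library 3 as well, and its log2 fold change was 0.81 (SE 0.40).

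H2-T23 encodes Qa-1, which presents leader peptides of other class I molecules to the receptor formed by Klrd1 (CD94) and Klrc1 (NKG2A) (ENSMUSG00000067212, chromosome 17, 36340665 to 36343747 of mm39). It lay at 590, 628, 500 and 327 in KO libraries 1 to 4 and at 92.1, 20.8, 473 and 350 in WT libraries 1 to 4. WT libraries 1 and 2 were far below the rest, whereas WT libraries 3 and 4 lay within the KO range. Its log2 fold change of 1.87 (SE 0.79, adjusted p = 0.730 by limma) became 1.0 without WT library 2. The value in that library corresponds to 0.323 of the estimated worth of a fragment.

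Tapasin, which holds empty class I molecules at the peptide transporter, had nearly equal values in the WT libraries and a wide spread in KO. Tapbp (ENSMUSG00000024308, chromosome 17, 34134873 to 34148266 of mm39) lay at 3344, 6759, 2894 and 5878 in KO libraries 1 to 4, against 3427, 2937, 3253 and 2994 in WT libraries 1 to 4. KO libraries 2 and 4 were above all WT libraries, while KO libraries 1 and 3 were not. The log2 fold change was 0.49 (SE 0.25, adjusted p = 0.767 by limma), and 0.29 without KO library 2.

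Nlrc5 drives transcription of class I genes from their promoters without binding DNA itself (ENSMUSG00000074151, chromosome 8, 95160984 to 95253900 of mm39). It lay at 1647, 1769, 5449 and 2822 in KO libraries 1 to 4 and at 1293, 1320, 1719 and 2726 in WT libraries 1 to 4. KO library 3 stood highest, and the other KO libraries lay within or close to the WT range. The log2 fold change of 0.62 (SE 0.34, adjusted p = 0.770 by limma) was 0.26 without KO library 3.

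The inducible proteasome subunits were among the low members, and single libraries held few fragments of them. Psmb8 (LMP7; ENSMUSG00000024338, chromosome 17, 34416695 to 34420428 of mm39) lay at 94.0, 212, 681 and 439 in KO libraries 1 to 4 and at 70.7, 127, 285 and 230 in WT libraries 1 to 4. The groups overlapped, and library 1 was the lowest in both. Its log2 fold change was 0.83 (SE 0.75, 95% interval -0.73 to 2.39, adjusted p = 0.833 by limma). Leaving out KO library 1 gave 1.35, leaving out KO library 3 gave 0.40, and leaving out WT library 1 gave 0.45.

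Psmb9 (LMP2; ENSMUSG00000096727, chromosome 17, 34400961 to 34406738 of mm39) lay at 166, 282, 361 and 300 in KO libraries 1 to 4 and at 0, 48.3, 212 and 260 in WT libraries 1 to 4. Its log2 fold change of 2.72 (SE 1.40, adjusted p = 0.767 by limma) rests on the WT library in which it was listed at 0, and was 0.94 without it. Psmb9 and Tap1 lie head to head on opposite strands with gene models that overlap by 212 bases, and strand is not stated for these libraries, so reads in that overlap cannot be told apart. Tap1 had a log2 fold change of 0.07 (SE 0.34, adjusted p = 0.982 by limma) and Tap2 of 0.74 (SE 0.49, adjusted p = 0.772 by limma), and both overlapped between groups.

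Psmb10 (MECL-1; ENSMUSG00000031897, chromosome 8, 106662367 to 106665076 of mm39) was the only member with a lower mean in KO. It lay at 93.1, 241, 170 and 425 in KO libraries 1 to 4 and at 522, 579, 349 and 304 in WT libraries 1 to 4. KO libraries 1 to 3 were below all WT libraries, and KO library 4 lay among them. For Psmb10 the log2 fold change was -1.07 (SE 0.57, 95% interval -2.27 to 0.13, adjusted p = 0.770 by limma), and -0.70 without KO library 1, where its value corresponds to 1.17 fragments.

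Each inducible subunit takes the place of a constitutive one in the assembled proteasome: Psmb8 that of Psmb5, Psmb9 that of Psmb6 and Psmb10 that of Psmb7. The log2 ratio of Psmb8 to Psmb5 was 2.64, 6.67, 2.80 and 2.11 in KO libraries 1 to 4 and 0.81, 1.79, 1.95 and 0.95 in WT libraries 1 to 4. All KO ratios were above all WT ratios, with a mean difference of 2.18 (exact two-sided permutation p = 0.0286, the smallest possible, adjusted over the 5 ratios 0.143). Without KO library 2 the difference was 1.14. Psmb5 was low throughout, from 1.10 to 101 among KO libraries and from 36.0 to 119 among WT libraries, and never exceeded the equivalent of 3.65 fragments. The log2 ratio of Psmb9 to Psmb6 differed by 2.68 (exact two-sided permutation p = 0.229, adjusted 0.286), or 0.69 without WT library 1, in which Psmb9 was listed at 0. The log2 ratio of Psmb10 to Psmb7 differed by -1.16 (exact two-sided permutation p = 0.171, adjusted 0.286). Adjusted over 5 ratios, a single ratio cannot go below 0.143 even when its groups are separate, so these p-values do not show that the ratios were alike. Both ratios of low genes depended on the pseudocount: with 10 in place of 1 the difference was 1.53 for Psmb8 to Psmb5 and 1.81 for Psmb9 to Psmb6. Psmb5 itself had a log2 fold change of -1.35 (SE 1.74, adjusted p = 0.876 by limma), larger in size than the 0.83 of Psmb8. Psmb6 and Psmb7 had log2 fold changes of 0.04 (SE 0.52) and 0.09 (SE 0.42), which took either sign across the alternatives tried.

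**Figure D3:**
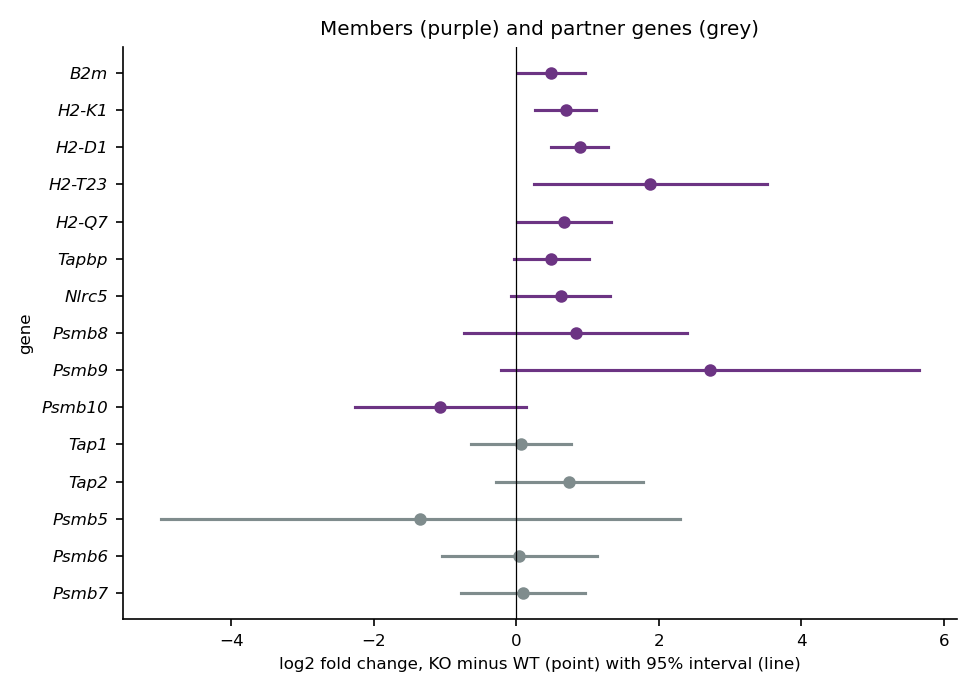
Log2 fold change, KO minus WT (horizontal axis), with its 95% interval from the limma fit, for the 10 members (purple) and for 5 genes of the same route (grey). The intervals of B2m, H2-K1, H2-D1, H2-T23 and H2-Q7 lie above 0 before adjustment for the number of genes tested, and those of the low genes Psmb9 and Psmb5 are the widest.

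Divided by the exon length of each gene, the normalized count per kilobase set the members in order of level. This length is the union of all exons annotated for a gene and can exceed that of the transcripts expressed, so the order depends on the annotation. In KO it was 23007 ± 5214 for B2m, 3967 ± 392 for H2-D1, 3948 ± 751 for H2-K1 and 1779 ± 805 for H2-Q7 (SD, n = 4). Tapbp followed at 1301 ± 521, Nlrc5 at 344 ± 208, H2-T23 at 177 ± 46.5, Psmb10 at 136 ± 83.2, Psmb8 at 105 ± 76.7 and Psmb9 at 75.8 ± 22.2. H2-D1 and H2-K1 did not differ beyond their spread in KO, nor did H2-Q7 and Tapbp, or any neighbours from Nlrc5 downwards. In WT the level per kilobase was 2450 ± 516 for H2-K1 and 2146 ± 322 for H2-D1, again within their spread, and Psmb10 at 257 ± 77.9 stood beside Nlrc5 at 208 ± 78.9. Of the level per kilobase summed over 13 H2 heavy chain genes, H2-K1 and H2-D1 together held the largest part in every library: H2-K1 30.5% to 33.9% in KO and 26.7% to 44.0% in WT, and H2-D1 27.9% to 40.9% in KO and 24.4% to 35.9% in WT. H2-Q7 held 7.84% to 17.8% in KO and 11.4% to 19.6% in WT. All of these ranges overlapped between groups.

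Among libraries, KO library 3 had the highest value of 7 of the 10 members (B2m, H2-K1, H2-D1, H2-Q7, Nlrc5, Psmb8 and Psmb9). WT library 1 had the lowest value of 4 (H2-D1, Nlrc5, Psmb8 and Psmb9) and WT library 2 of another 4 (B2m, H2-K1, H2-T23 and H2-Q7). The sum of the 10 members was 49038 to 70632 in KO and 30660 to 42722 in WT. The sum of 11 CD8 T cell markers was highest in the same KO library 3, at 42831, and lowest in WT library 2, at 7582. It ranged from 19590 to 42831 in KO and from 7582 to 24402 in WT, and 10 of the 11 markers had a log2 fold change above 0 (median 0.71), none past the threshold. The sum of 12 macrophage and monocyte markers ranged from 104053, in KO library 3, to 236702 in KO and from 179212 to 284356 in WT, with 12 of 12 below 0 (median -0.46) and none past the threshold. Over all tested genes, 43.4% were above 0. Lyz2 alone made up most of the macrophage sum in every library, with 75242 of the 104053 in KO library 3. Not every macrophage marker was lowest in that library, and Cd68, C1qa, C1qc, Apoe and Fcgr1 were not. The sum of 6 dendritic cell markers was 1223 to 2747 in KO and 634 to 1077 in WT. Flt3, Clec9a and Cd209a were at 0 in at least 1 library. Of these markers 5 were tested, 4 of them above 0 and Zbtb46 at -0.72 (SE 1.32), none past the threshold. Xcr1 was lowest in KO library 4, at 77.4. Itgax made up 1092 of the 1519 in KO library 2 and 1043 of the 1601 in KO library 4. The part of these cell type markers in the class I values was not tested.

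**Figure D4:**
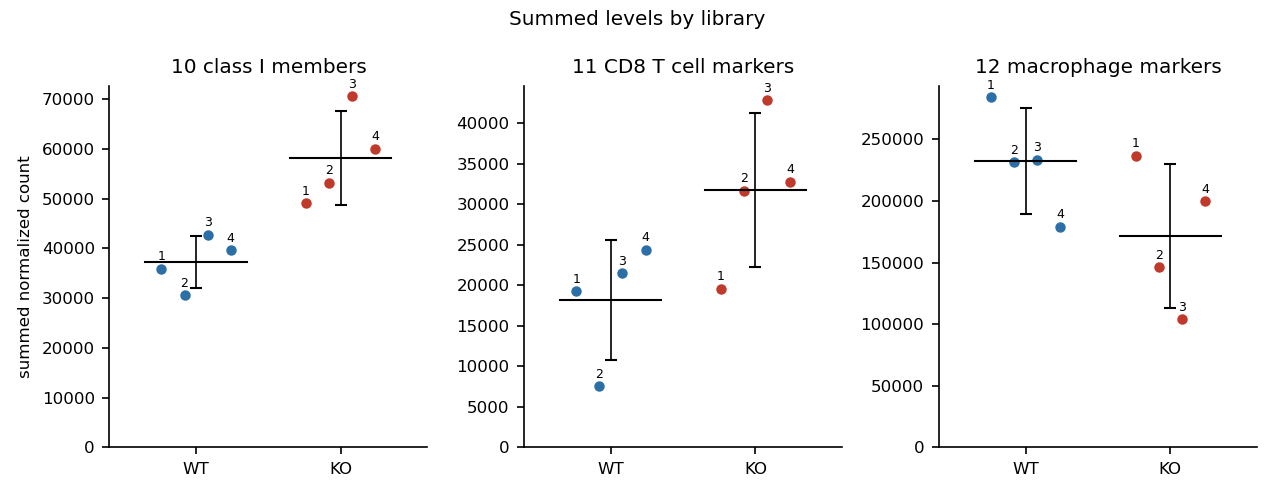
Summed normalized count (vertical axis, starting at 0) of the 10 members, of 11 CD8 T cell markers and of 12 macrophage and monocyte markers in each WT (blue) and KO (red) library, numbered by library, with mean (line) and SD (error bar). KO library 3 is the highest for the members (70632) and the CD8 markers (42831) and the lowest for the macrophage sum (104053), most of which is Lyz2.

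The rest of the class I route did not pass the test either. Of 13 other class I and class I-like heavy chain genes 10 were tested, 9 of them above 0 with a median of 0.45, and Cd1d1, which presents lipids, had the smallest p among them (log2 fold change 0.88, SE 0.41, adjusted p = 0.732 by limma), while H2-T24 was at -0.45 (SE 0.79). Of 8 genes of peptide transport, trimming and loading 6 were above 0, with a median of 0.10, and the chaperone calnexin (Canx) was at -0.28 (SE 0.18). The 11 structural subunits of the proteasome core had a median of 0.25, with Psma1 at 0.46 (SE 0.28) and Psma4 at -2.44 (SE 1.49). The 9 proteasome activators and assembly factors had a median of 0.15, with the maturation factor Pomp at 0.61 (SE 0.70) and the assembly chaperone Psmg1 at -3.43 (SE 1.86). Psma4 and Psmg1 were at or near 0 in 2 KO libraries each. In these 4 lists no gene passed in either direction, and the 1 gene with an unadjusted p under 0.05 was Cd1d1. Over all tested genes, 6.70% had an unadjusted p under 0.05 in either direction, and 43.4% had a log2 fold change above 0.

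Of 19 regulators of class I genes, 12 were above 0 (median 0.41), as were 43.4% of all tested genes, and none passed. An unadjusted p under 0.05 was found for 5 regulators, all higher in KO, against 3.21% of all tested genes higher at this level. Ifngr1, a chain of the interferon gamma receptor named here after its values were seen, was at 4167, 5550, 5538 and 5181 in KO libraries 1 to 4 and at 3021, 2352, 3361 and 3541 in WT libraries 1 to 4. The groups did not overlap for Ifngr1, with a log2 fold change of 0.74 (SE 0.21, adjusted p = 0.281 by limma). Rfxank, a subunit of the complex that binds the X box of MHC promoters, was at -1.29 (SE 0.86). Among 6 genes for receptors that bind class I molecules, Klrd1, which pairs with Klrc1 to bind Qa-1, had the smallest p. It lay at 4084, 2991, 4612 and 4689 in KO libraries 1 to 4 and at 1366, 816, 1497 and 2920 in WT libraries 1 to 4. The groups did not overlap, although WT library 4 came close to KO library 2, and the log2 fold change was 1.44 (SE 0.30, adjusted p = 0.0527 by limma). Cd160 was at -2.31 (SE 1.97), with 0 and 1.10 in KO libraries 1 and 2.

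Of the 10 members, 7 lie on chromosome 17 in the histocompatibility region. Between Tapbp and H2-T23, 114 genes were tested, of which 67 were above 0 (43.4% of all tested genes were), with a median of 0.23. Of these 114, 2 passed, both higher in KO, against 0.236% of all tested genes: the class II genes H2-Aa (log2 fold change 1.80, SE 0.29, adjusted p = 0.00762 by limma) and H2-Eb1 (1.73, SE 0.28, adjusted p = 0.00710 by limma). In 7 of the 114 the KO libraries lay above all WT libraries, against 2.02% of all tested genes, and in 1 below. The members in the region are part of these counts. All of them were above 0, and H2-K1 and H2-D1 are among the 7 genes above all WT libraries.

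**Figure D5:**
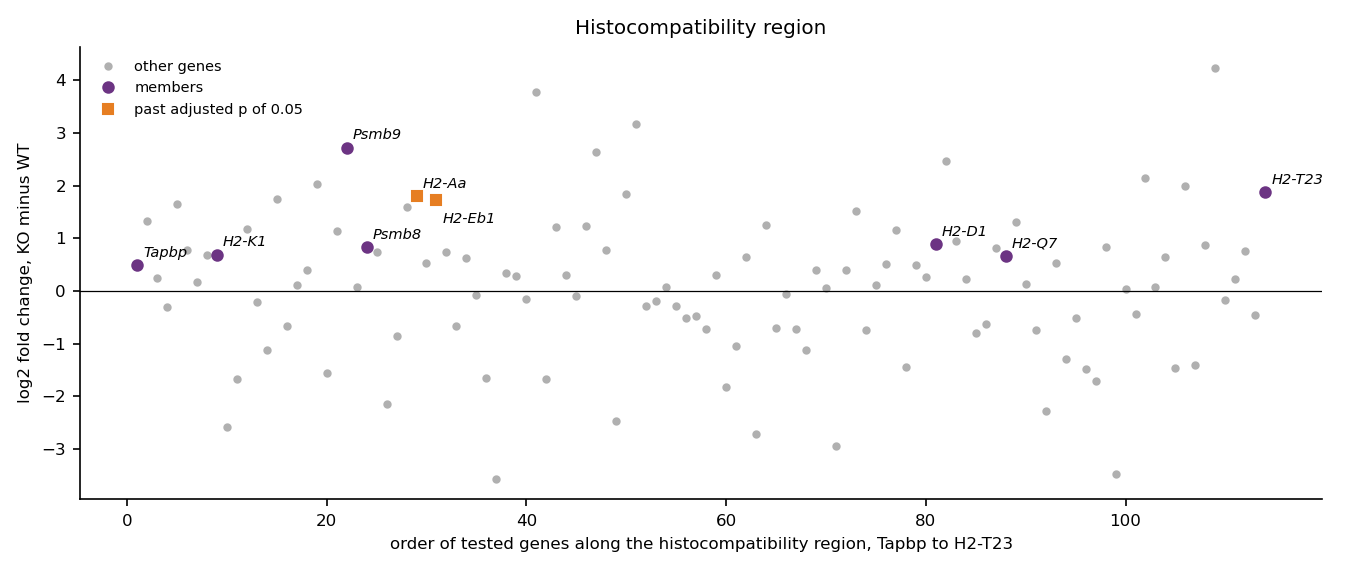
Log2 fold change, KO minus WT (vertical axis), of the 114 tested genes between Tapbp and H2-T23 in their order along the chromosome (horizontal axis, position in the order, not distance). Members are purple, the 2 genes past the threshold orange and all others grey. The members all lie above 0, and the genes around them lie on both sides of it.

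The genes whose values across the 8 libraries were most like the mean of the members' standardized log2 values were Ccm2 (Pearson r = 0.976), Sla (0.965), Irgm2 (0.958), Cd86 (0.952) and Mknk2 (0.944), picked as the highest among named genes with a mean of at least 50. Irgm2, an interferon-induced GTPase, lay at 445, 497, 1290 and 983 in KO libraries 1 to 4 and at 212, 237, 519 and 475 in WT libraries 1 to 4, overlapping between groups. Cd86, a costimulatory ligand of antigen-presenting cells, lay at 1190, 1438, 1622 and 1696 in KO and at 735, 756, 904 and 1089 in WT, without overlap (log2 fold change 0.78, SE 0.28, adjusted p = 0.587 by limma). None of these 5 genes passed the threshold, and their likeness is a description over 8 libraries that share the same 2 groups.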

How the data were processed

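Bulk RNA was sequenced from 8 libraries of cells sorted as CD45+CD3e+CD8+ from tumours, 4 KO and 4 WT. The deposited table holds normalized counts, a signal on which the authors used DESeq2 size factors, per the table's name. Software listed in the submitters' processing notes is STAR 2.7.8a, Partek and DESeq2, and the build is mm39, with no roles. Most low values were whole multiples of a library's smallest step, yet only 81.4% to 88.0% of values up to 500 reads were whole within 0.02 reads, so no count model was run. Depth is the column sum divided by that step. The number of distinct fragments was estimated from the share of expressed genes (mean of 20 to 500 in the other libraries, small RNAs left out) with under 3 reads, assuming Poisson sampling.

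Values were used as log2(value + 1) and, for the 16120 genes with a mean of at least 10, compared by limma 3.58.1 (lmFit, eBayes with trend; R 4.3.3), KO against WT without covariates, two-sided, with Benjamini-Hochberg adjustment over all genes and a threshold of 0.05. Ratios were taken on the same log2(value + 1) scale, since Psmb9 was listed at 0 in a WT library, and tested by exact permutation of the 70 arrangements of the group labels. On this scale the fold change of a gene near 0 in a library depends on the pseudocount and can exceed the fold of the group means, as for Psmb9, Psmb5 and Psmg1. Exon lengths come from GENCODE M21, as the union of all exons annotated for a gene. Positions of genes are those of the deposited table on mm39, and promoters are RefSeq's on GRCm38.p6.

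Named were all members, Mtdh, Tap1, Tap2, Psmb5 to Psmb7, from each list of the route the genes past the threshold and that with the smallest p in each direction, and the 5 genes most like the members; further genes are named as markers, as neighbours or, for H2-Aa and H2-Eb1, as the genes of the region past the threshold. A gene that this rule names is not reported here. Members and lists were chosen with earlier results of these data known. Alternatives covered the pseudocount, minimum mean, scaling, replicate block, sample weights, robust hyperparameters and each library left out.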

Additional observations from a re-analysis of the deposited data

Results flagged for a closer look

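In the KO group the log2 ratio of Psmb8 to Psmb5 was 6.67 in library 2 against 2.11 to 2.80 in the other 3 libraries, a sample set apart from its group by 0.849 of the group's range. In the WT group the log2 ratio of Psmb10 to Psmb7 was 0.47 in library 1 against -0.70 to -0.53 in the others, set apart by 0.849 of the range as well. These 2 were found among 40 groups of 4 values examined, where chance alone sets apart about 1 group in 20. The values of the members themselves held no such sample.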

How the results depend on the processing

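The log2 fold change kept its sign for all 10 members under each of the 18 alternatives, with 9 above 0 and Psmb10 below. The number of members past the threshold was 0 with limma in the reported fit, and 1, H2-D1, with a pseudocount of 10, without a minimum mean, with sample weights and with robust hyperparameters. It was 0 to 0 when each library was left out in turn. Over all genes, 38 passed, against 63 with a pseudocount of 10, 15 with a minimum mean of 50, 112 with sample weights and 7 to 70 when each library was left out. Leaving out KO library 4 gave 7, WT library 1 gave 11 and WT library 4 gave 70. Whether same-numbered libraries were paired is not given in the sources used here. Their deviations from the group means correlated at 0.02 to 0.08, and 1 of 8 libraries correlated best with its own number. With few distinct fragments in a library, low correlations cannot exclude a pairing. With the replicate block 0 genes passed and H2-D1 had a limma adjusted p of 0.145.

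For H2-D1 the log2 fold change was 0.81 to 0.98 when each library was left out (limma adjusted p = 0.0735 to 0.358). Partner genes changed sign: Psmb5, at -1.35 in the reported fit, was at 0.13 with quantile normalization, Psmb6 at -0.01 when scaled to the sum without small RNAs, and Psmb7 at -0.07 with sample weights. When each library was left out, Psmb5 ranged from -2.05 to -0.18, Psmb6 ranged from -0.25 to 0.34, Psmb7 from -0.16 to 0.34 and Tap1 from -0.07 to 0.38. The cause of these moves was not tested. The ratios kept their sign: over the libraries left out, Psmb8 to Psmb5 ranged from 1.14 to 2.66, Psmb9 to Psmb6 from 0.69 to 3.86, Psmb10 to Psmb7 from -1.61 to -0.71, H2-K1 to B2m from 0.01 to 0.40 and H2-D1 to B2m from 0.30 to 0.49. The ratios with a library left out were not tested. In 4 members (H2-T23, Psmb8, Psmb9 and Psmb10) at least 1 library held the equivalent of under 2 fragments, which limits how small a difference can be seen in them.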

Other observations

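The paired letters TGACG and ATTGG at the spacing seen in B2m, H2-K1, H2-D1 and H2-Q7 occur in the promoters of 37 genes, of which 25 were tested. Among the 21 tested genes that are not members, 13 had a log2 fold change above 0, against 43.4% of all tested genes. The median of the 21 was 0.09, and none passed the threshold, against 0.236% of all tested genes. The genes below are named after their values were seen. Fasl, the death ligand of cytotoxic T cells, was at 1.20 (SE 0.45, adjusted p = 0.642 by limma), and H2-M3, a class I heavy chain that presents formylated peptides, at 1.10 (SE 0.71, adjusted p = 0.770 by limma). The splicing factor Hnrnpf (-0.04, SE 0.20) and the transcription factor Nfe2l1 (0.03, SE 0.24), both well expressed, lay close to 0. The lowest were Slc8a3 at -2.80 (SE 1.79) and Xpnpep1 at -1.16 (SE 1.33), neither past the threshold.

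The shares of inducible subunits restate the ratios above on another scale and carry no further test. Their size depends on the annotated exon lengths used, such as 3381 bases for Psmb8 and 899 for Psmb5. Psmb8 made up 53.6% to 98.1% of the level per kilobase of Psmb8 and Psmb5 together in KO and 32.0% to 51.0% in WT. The 98.1% is that of KO library 2, where Psmb5 was at 1.10, and Psmb5 never exceeded the equivalent of 3.65 fragments. Psmb10 made up 21.7% to 64.4% of Psmb10 and Psmb7 in KO and 55.2% to 73.6% in WT, the opposite order, with overlap between groups. Psmb9 made up 13.4% to 43.5% of Psmb9 and Psmb6 in KO and 0% to 41.9% in WT.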
